A study of Mus musculus with 26 samples.

Results

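Lungs of mice given the low dose of Mitsui XNRi-7, a long and rigid multiwalled carbon nanotube, were compared with lungs of control mice. The exposed group was taken as every array labelled with 42.7 µg/mouse of Mitsui XNRi-7, which gave 6 of the 26 arrays of the series and 5 of its 25 animals, because 1 animal had been hybridised on 2 arrays. Those 2 arrays were averaged, and the 5 animals, called Mitsui low here, were set against 5 control animals. All were female MutaMouse mice of about 12 weeks per the sample labels, a transgenic strain that carries a reporter gene for counting mutations in tissue DNA.

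Mitsui low mice received the nanotubes in mouse serum through the windpipe once a week for 4 weeks, and lungs were taken 56 days after the last dose. Whether 42.7 µg is the amount per instillation or the sum over the weeks is not stated in the labels. The control group is called a vehicle control in the design text, whereas the treatment protocol gives olive oil by gavage, so an effect of the instillation or of serum cannot be told apart from an effect of the nanotubes. Sex also differs between the labels, which say female, and the design text, which says male. Another pair of groups, of 5 animals each, served to place the low dose. They were Mitsui high, with 128 µg of the same nanotube, and NM-401 low, with 42.7 µg of another long multiwalled nanotube. Both were given in the same way. With NM-401 high (128 µg) they also entered the fit, so standard errors and p-values below rest on the spread within all 5 groups.

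Inhaled fibres that macrophages cannot engulf whole stay in the alveoli for weeks, and the lung then keeps recruiting monocytes, which become macrophages rich in lysosomes and lipid. Alveolar type 2 cells make surfactant and renew the thin type 1 cells that line the air sacs. Secretory cells of the airway turn to mucus production under interleukins of the type 2 response.

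Each value gives, on the log2 scale, lung RNA of the animal, labelled with Cy5, over a universal mouse reference RNA, labelled with Cy3, and a level in that sense can be compared between animals but not between genes. The share of probes with Cy5 well above background was 46.7% to 57.7% over Mitsui low arrays, against 48.2% to 57.9% over control arrays, and precision is limited by having 5 animals a group. Of the 12 genes that define lung tissue, all were measured. Of these, 5 rose (41.7%, against 10.6% of all features) while none fell. Sex-specific transcripts met the label female only in part. Xist was above background in 5 of 5 Mitsui low and 5 of 5 control animals and the Y-linked Ddx3y, Kdm5d and Uty in 0 of either, but the probe of the Y-linked Eif2s3y was above background in 5 of 5 of both. The 2 arrays of Mitsui low animal 5 differed by a standard deviation of 0.263 (log2), within the 0.241 to 0.306 found between arrays of different animals of the group, so the repeat did not stand closer than another animal.

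Both groups were spread over 4 slides, and slide itself was associated with 29% of features at an adjusted p under 0.05. Within slides 1, 2, 3 and 4 the sign of the called changes was kept by 99.9%, 99.1%, 99.6% and 98.3% of features, which were called from these same animals.

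In Mitsui low lungs 4809 of 22950 features, 21% of those tested, differed from control lungs at a Benjamini-Hochberg adjusted p under 0.05 (limma, 5 animals a side), and "rose", "fell" and "called" below refer to this threshold. Of these, 2425 were higher (10.6% of all tested) and 2384 lower (10.4%). Features with a gene symbol were called more often, 3817 of 14838, than the 8112 without one. List members below all have a symbol, so the share to set beside theirs is above the 21% of all features. It was not counted by direction. The sizes were unequal, since 872 of the higher but 469 of the lower features changed at least 1.5-fold, and 307 against 49 changed at least 2-fold. In 16% of all features the 5 Mitsui low values did not overlap the 5 control values. When arrays were centred on their median in place of loess, the standard error widened and only 74 were called, 62 higher and 12 lower. That setting left 6 of the 30 lipid-laden macrophage genes called and 0 of the mitotic, antigen presentation, p53 and NRF2 genes listed below.

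**Figure D1:**
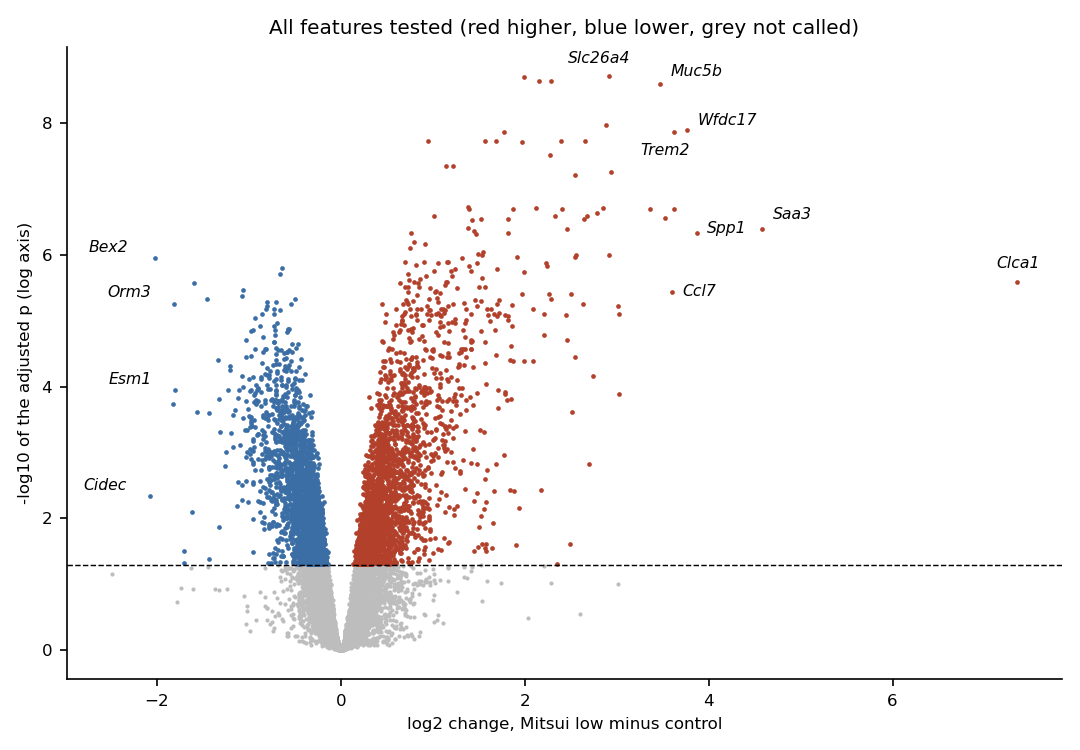
Log2 change (Mitsui low minus control, x axis) of all 22950 features against the −log10 of the adjusted p from limma (y axis), with features called higher in red, called lower in blue and not called in grey. The dashed line marks an adjusted p of 0.05, and the largest called falls, those of Cidec and Bex2, lie near −2. Clca1, at the far right, was not well above background in control animals, so its position is not a measured fold.

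Lipid-laden and lysosomal macrophage genes had the highest share of rises of the lists, as 24 of the 30 tested rose and 1 fell. Their median change was 1.28 (log2), against −0.0041 for all features, and 80% of the members were higher against 10.6% of all features. Trem2 encodes a lipid-sensing receptor of macrophages. Its log2 ratio was 1.4, 1.39, 1.24, 1.98 and 1.59 in Mitsui low animals, against −2.08, −2.39, −2.19, −1.81 and −2.01 in control animals. No value of either group came within reach of the other, and the difference was 12.3-fold (95% interval 8.15 to 18.5, adjusted p = 1.37e-08). Gpnmb, a glycoprotein of macrophage lysosomes, stood at 1.01, 1.20, 0.69, 1.41 and 1.72 in Mitsui low animals, against −2.34, −2.91, −2.30, −2.58 and −1.94 in control animals. Spp1, which encodes osteopontin, read 0.12, 0.05, 0.11, 0.16 and 0.86 in Mitsui low animals, against −4.30, −3.38, −3.33, −3.55 and −3.47 in control animals, a 14.6-fold difference (8.26 to 25.7). Animals 1 to 4 of the exposed group were nearly equal in Spp1, and animal 5 was higher.

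Protein-degrading enzymes of the lysosome rose with them: cathepsin D (Ctsd) by 2.33 ± 0.23 (log2 ± SE), cathepsin B (Ctsb) by 1.82, cathepsin S (Ctss) by 1.71 and cathepsin K (Ctsk) by 1.57. So did the proton pump subunit Atp6v0d2 (1.87). Of the lipid genes, the lipid droplet coat gene Plin2 rose by 1.22, the lipase genes Lpl and Lipa by 1.28 and 1.00 and the fatty acid carrier Fabp5 by 1.63, while the fatty acid receptor Cd36 fell by 0.42. The cholesterol exporters Abca1 and Abcg1 were not called, at −0.19 and 0.29. Mmp12, the macrophage elastase, was above background in 5 of 5 Mitsui low but 1 of 5 control animals. Its difference therefore rests on control signals that are mostly background, and no fold is given. A second Mmp12 probe differed by 0.49.

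The promoter of Ctsd is shown because it is the only one among the 22 list members matched to a RefSeq promoter that holds the CLEAR element TCACGTGA, the lysosomal gene motif, within 250 bases before the start. Of all genes with a promoter, 0.907% hold it. In the GRCm38.p6 build the window is chr7:142387828-142388077 on the minus strand, read 5′ to 3′ with the motif, which is its own reverse complement, in capitals.
Ctsd: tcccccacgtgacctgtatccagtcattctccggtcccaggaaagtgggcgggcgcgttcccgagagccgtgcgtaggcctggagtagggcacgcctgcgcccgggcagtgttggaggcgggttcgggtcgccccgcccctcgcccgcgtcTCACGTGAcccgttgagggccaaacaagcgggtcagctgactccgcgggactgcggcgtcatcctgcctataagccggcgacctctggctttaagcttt
The match begins 99 bases before the start, and it is a match of letters, not a measured binding site.

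Of 22 markers of macrophages and monocytes, 9 rose (40.9%, against 10.6% of all features) and 11 were not called. Another 2 fell (9.09%, against 10.4%), and the median was 0.50. Among those that rose were the scavenger receptor Msr1 (2.5 ± 0.30), the Fc receptor Fcgr3 (1.70 ± 0.22), Adgre1, which encodes F4/80 (1.52 ± 0.19), and Itgax, which encodes CD11c (1.43 ± 0.14). The 2 that fell were Siglecf and Ear1. Siglecf read 2.85, 3.88, 3.31, 2.93 and 2.40 in Mitsui low animals, against 3.97, 3.66, 4.08, 3.95 and 4.19 in control animals, where animal 2 of the exposed group lay among the controls. A second Siglecf probe differed by −0.27, against −0.90 for the probe used. The monocyte receptor gene Ccr2 and the receptor gene Csf1r were not called, at 0.03 and 0.17. RNA of whole lung pieces was measured, so more cells of a type and more RNA per cell cannot be told apart, here or in any list below. Outside the lists, Ms4a7 and Wfdc17, a gene of the whey acidic protein family expressed by activated macrophages, were 10.3-fold and 13.5-fold higher.

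**Figure D2:**
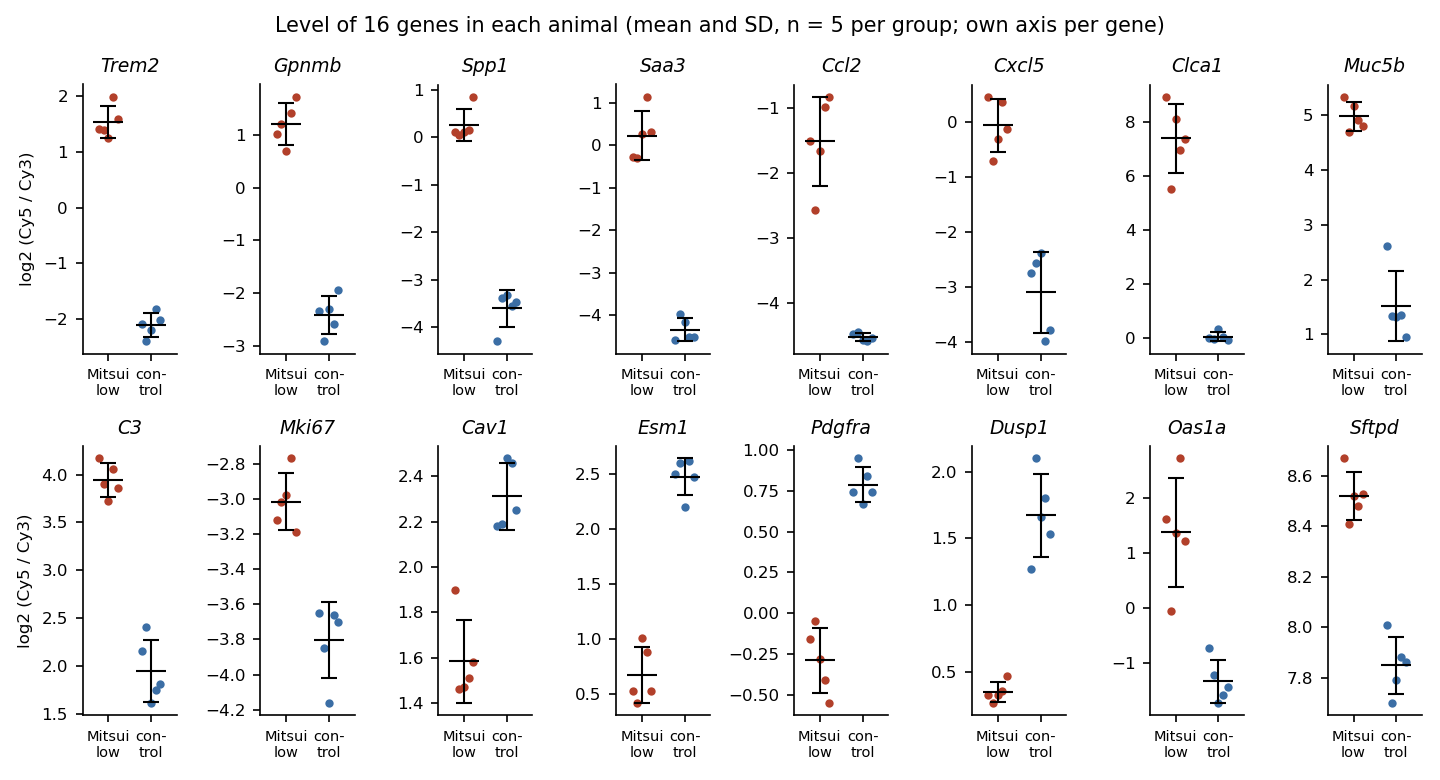
Log2 ratio of Cy5 over Cy3 (y axis, own scale per gene) of 16 genes in each of the 5 Mitsui low animals (red, left) and the 5 control animals (blue, right), with the mean and SD. The groups do not overlap for any of the 16 genes, and the exposed animals spread widest for Clca1, from 5.54 to 8.94, where the control values are not well above background.

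Acute phase reactants are proteins that the liver and the lung lining release in inflammation. Of 18 tested, 13 rose (72.2%, against 10.6% of all features) and 1 fell (5.56%, against 10.4%), with a median of 1.24. Saa3, an amyloid protein of serum made locally in lung, had log2 ratios of −0.28, −0.29, 0.27, 1.15 and 0.32 in Mitsui low animals, against −4.60, −3.97, −4.16, −4.51 and −4.51 in control animals. That 23.9-fold difference (12.3 to 46.5, adjusted p = 4.13e-07) was the largest among genes measured above background in all animals of both groups. Lipocalin 2 (Lcn2), an iron-trapping protein, rose 4.43-fold (3.57 to 5.5) and the fibrinogen gamma chain gene Fgg rose 5.71-fold, while the alpha and beta chains, Fga and Fgb, were not called at 0.40 and 0.76 (Fga was above background in 0 of 5 control animals). The orosomucoid genes split, since Orm1 and Orm2 rose by 1.13 and 1.48 but Orm3 fell. Orm3 stood at 1.35, 0.54, 0.34, 0.73 and 0.80 in Mitsui low animals, against 2.21, 3.16, 2.46, 2.46 and 2.51 in control animals. Orm genes are near copies of each other, as are Saa genes, and how far a probe also binds its relatives was not tested.

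Complement genes, which tag particles for uptake, rose in 14 of 20 (70%, against 10.6% of all features) with none falling. Their median change was 0.84. The central component C3 was 4.17, 3.90, 3.72, 4.06 and 3.86 in Mitsui low animals, against 2.16, 2.41, 1.62, 1.75 and 1.82 in control animals, a 3.97-fold difference (3.27 to 4.81). The 3 chains of the macrophage-made C1q, C1qa, C1qb and C1qc, rose by 1.39, 1.67 and 1.14. Factor B (Cfb) rose by 1.42, and the anaphylatoxin receptor C3ar1 by 1.52, but the receptor C5ar1 was not called at 0.12.

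Chemokines of the CC family and related lymphoid chemokines rose in 12 of 21 genes (57.1%, against 10.6% of all features). They fell in 1 (4.76%, against 10.4%), with a median of 0.93. The monocyte attractant Ccl7 had log2 ratios of −0.89, −1.72, −1.02, −0.06 and −0.06 in Mitsui low animals, against −4.69, −4.20, −4.23, −4.54 and −4.08 in control animals. Ccl2, the main ligand of the monocyte receptor CCR2, stood at −1.50, −2.56, −1.66, −0.99 and −0.83 in Mitsui low animals, against −4.47, −4.44, −4.56, −4.58 and −4.53 in control animals. In both genes animal 2 was the lowest of the exposed animals and still far above the controls. Ccl9, Ccl8, Ccl4 and Ccl3 rose by 2.88, 2.85, 2.46 and 2.23. Cx3cl1, the membrane-bound fractalkine, fell by 0.64 ± 0.12, and the T cell attractants Ccl5 and Cxcl9 were not called, at −0.03 and 0.71.

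Neutrophil genes moved only in part, with 6 of 15 higher (40%, against 10.6% of all features) and 1 lower (6.67%, against 10.4%). Their median was 0.23. Cxcl5, a neutrophil attractant of alveolar epithelium, read 0.45, −0.71, −0.31, 0.36 and −0.14 in Mitsui low animals, against −2.75, −2.57, −2.39, −3.99 and −3.79 in control animals, an 8.15-fold difference. Cxcl1 rose by 1.84 ± 0.27. The calprotectin genes S100a8 and S100a9, which mark the neutrophils themselves, were not called at 0.23 and −0.08, and the controls spread more widely in S100a8 (0.40 to 3.57) than the exposed animals (2.04 to 3.22). Ppbp, a chemokine stored in platelets, fell by 1.43 ± 0.25.

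Of the inflammatory cytokines and receptors, 13 of 22 rose (59.1%, against 10.6% of all features) and 1 fell (4.55%, against 10.4%). Their median was 0.46. Il33, an alarm cytokine of the epithelium, was 3.27, 2.94, 3.30, 3.07 and 3.47 in Mitsui low animals, against 1.49, 1.37, 1.6, 1.67 and 1.95 in control animals, a 3.01-fold difference (2.26 to 4.02). The lipopolysaccharide receptor Cd14 rose by 2.27 ± 0.19, Toll-like receptor 2 (Tlr2) by 1.38 ± 0.13, Tnf by 0.81 ± 0.13 and Csf2, which encodes GM-CSF, by 1.01 ± 0.19. The interleukin 1 ligands Il1a and Il1b were not called, at 0.09 and −0.05, but the antagonist Il1rn rose by 0.87. Il6 rose by 1.20 ± 0.21 and was above background in 5 of 5 Mitsui low but 2 of 5 control animals.

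The Il6 promoter is printed because it holds the NF-kB motif GGANTTTCC. On either strand within 250 bases before the start, 4 of the 18 matched members of this list hold it. Of all genes with a promoter, 1.25% do. The window is chr5:30012864-30013113 (GRCm38.p6, plus strand), 5′ to 3′, with the motif in capitals, and the match begins 43 bases before the start.
Il6: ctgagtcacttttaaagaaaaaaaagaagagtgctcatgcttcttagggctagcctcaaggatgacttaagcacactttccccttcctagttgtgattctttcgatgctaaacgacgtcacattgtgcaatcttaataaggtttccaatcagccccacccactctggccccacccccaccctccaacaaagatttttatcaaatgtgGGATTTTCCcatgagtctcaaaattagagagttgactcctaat
The other members with the motif were Csf1, Tnfaip3 and Nfkbia. The first 2 of them rose, by 0.70 and 0.58, and Nfkbia was not called at −0.07.

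Genes of the type 2 response rose in 12 of 24 (50%, against 10.6% of all features) and fell in 3 (12.5%, against 10.4%). Their median was 0.74. Clca1, a protein secreted by goblet cells, reached log2 ratios of 8.94, 5.54, 8.13, 6.98 and 7.38 in Mitsui low animals. It was well above background in 0 of 5 control animals, so no fold is given. Slc26a4, an anion exchanger of the airway, was 6.34, 6.23, 6.45, 6.26 and 6.42 in Mitsui low animals, against 3.94, 2.83, 3.11, 3.94 and 3.29 in control animals. Retnla and Arg1, markers of alternatively activated macrophages, rose by 1.69 and 1.44. The 3 genes that fell were the epithelial cytokine Tslp (−0.34), the matrix protein Postn (−0.58) and the transcription factor Gata3 (−0.41), and the receptor Il4ra was not called at −0.10. Itln1 was the most uneven of the genes named, at 3.06, 1.33, 0.17, −0.05 and −1.31 in Mitsui low animals, against −1.47, −1.34, −1.86, −1.96 and −1.93 in control animals. It was above background in 5 of 5 Mitsui low but 1 of 5 control animals, whose values are therefore mostly background. Its adjusted p of 0.0496 was lost when any of 9 of the 10 animals was left out.

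Secretory genes of the airway rose in 11 of 19 (57.9%, against 10.6% of all features) with none falling. Their median of 1.54 was the highest of the lists. The gel-forming mucin Muc5b stood at 5.33, 4.69, 5.16, 4.90 and 4.79 in Mitsui low animals, against 2.61, 1.33, 1.32, 1.35 and 0.95 in control animals, an 11-fold difference (7.75 to 15.7). Control animal 1 was above the other controls but below every exposed animal. Muc5ac, the other gel-forming airway mucin, rose by 1.56 ± 0.29, the mucin-folding enzyme Agr2 by 2.09 ± 0.31, the trefoil factor Tff2 by 1.85 ± 0.31 and Scgb3a1 by 1.99 ± 0.29. The main club cell product Scgb1a1 and the goblet cell transcription factor Spdef were not called, at 0.19 and 0.47. Of the 18 genes of motile cilia, 4 rose (22.2%, against 10.6% of all features), and all of these overlapped between the groups. The cilia list had a median of 0.34 over all slides, yet −0.03 and −0.02 within slides 3 and 4. Leaving out Mitsui low animal 2 or 3, or control animal 1, 2 or 5, left 1 of the 4 called.

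**Figure D3:**
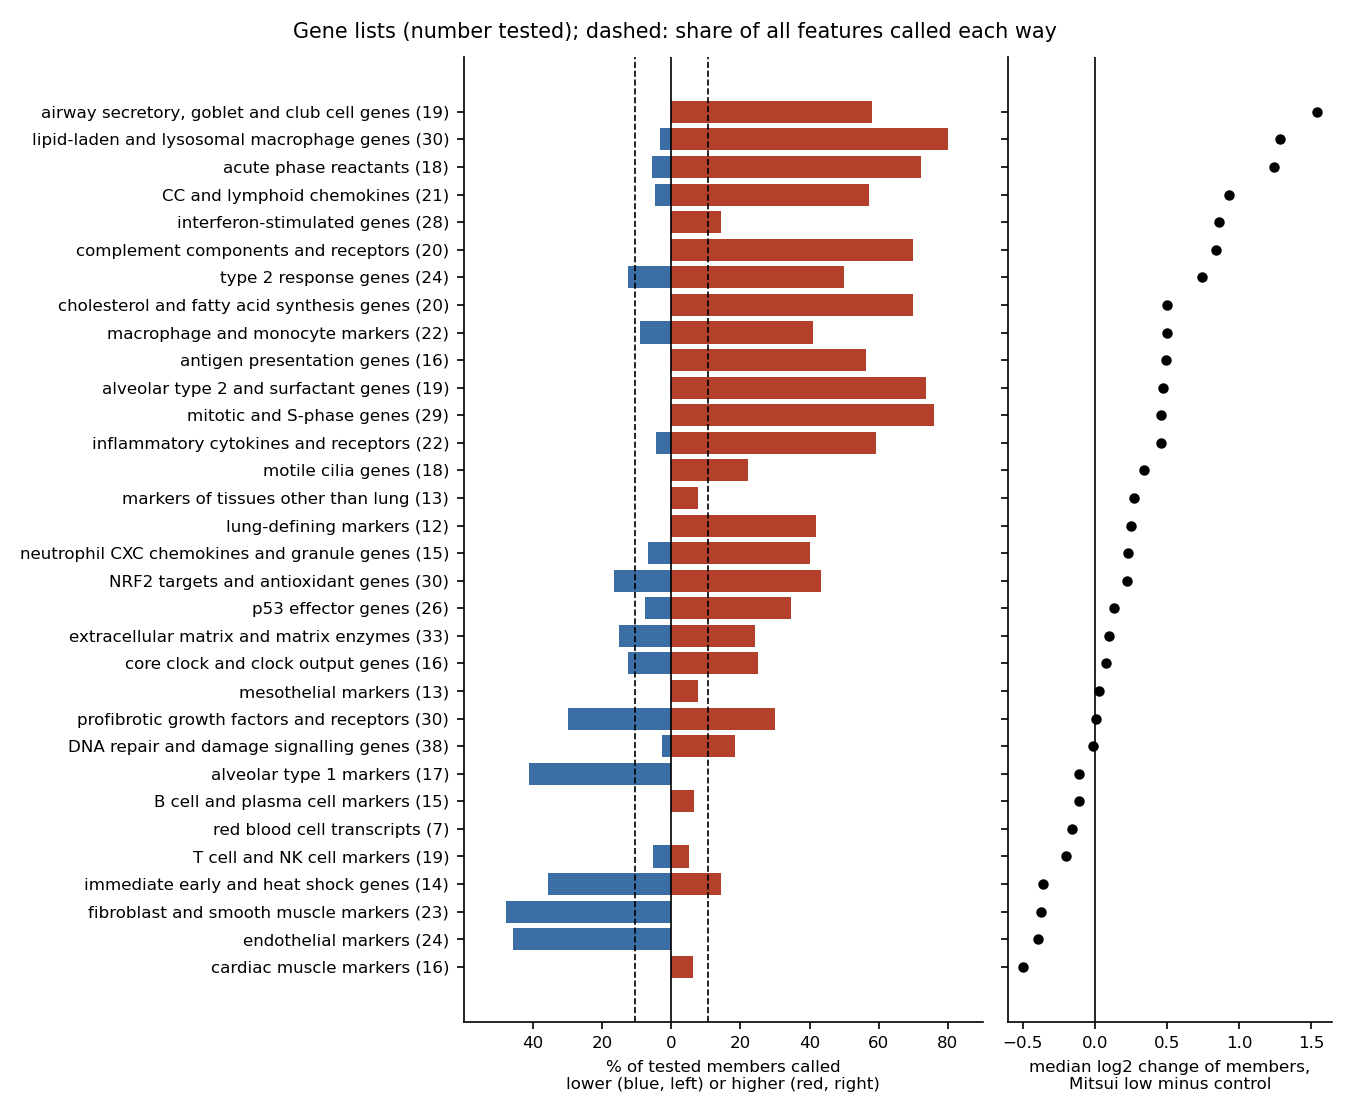
Share of the tested members of each gene list called higher (red bars to the right) or lower (blue bars to the left) in Mitsui low lungs, in percent, and the median log2 change of the members (right panel), with the number tested in brackets. Dashed lines mark the shares of all features called higher (10.6%) and lower (10.4%), and lists run from the highest median (airway secretory genes, 1.54) to the lowest (cardiac muscle markers, −0.50).

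Interferon-stimulated genes varied widely among the exposed animals. All 28 tested had a positive change, with a median of 0.86, but 4 were called (14.3%, against 10.6% of all features). The mean of the list relative to controls was 1.05, 0.22, 0.79, 1.96 and 0.72 in Mitsui low animals 1 to 5, against 0.21, 0.06, −0.18, −0.11 and 0.02 in control animals, so animal 4 stood highest and animal 2 was level with control animal 1. The antiviral enzyme gene Oas1a read 1.62, −0.06, 1.36, 2.72 and 1.22 in Mitsui low animals, against −0.72, −1.21, −1.72, −1.57 and −1.43 in control animals (6.49-fold, 2.86 to 14.7, adjusted p = 0.00147). Oas2 and the nucleic acid sensor Zbp1 rose by 2.18 and 1.56, and Ifi27 by 0.46. The call of Ifi27 was lost when any of 7 animals was left out. Isg15, at 0.93, −0.11, 0.34, 2.94 and 0.67 in Mitsui low animals against −0.41, −0.34, −0.70, −0.97 and −0.76 in control animals, was not called. The 4 calls rest on the spread within all 5 groups. The list mean ran from 0.28 to 2.03 in NM-401 low and from 0.37 to 1.16 in Mitsui high animals. A fit with only the Mitsui low and control animals called 18 of the 28, and one with replicate number as a block called 12. The part of the other groups in these counts was not tested.

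The Oas1a promoter is given as the example of this list. The interferon-stimulated response element was searched as GAAA repeated after any 2 bases, on either strand within 250 bases before the start. It was held by 9 of the 21 matched members (42.9%), against 3.46% of all genes with a promoter. The window is chr5:120907526-120907775 (GRCm38.p6, minus strand), 5′ to 3′, and the capitals mark 2 overlapping matches that begin 20 and 14 bases before the start.
Oas1a: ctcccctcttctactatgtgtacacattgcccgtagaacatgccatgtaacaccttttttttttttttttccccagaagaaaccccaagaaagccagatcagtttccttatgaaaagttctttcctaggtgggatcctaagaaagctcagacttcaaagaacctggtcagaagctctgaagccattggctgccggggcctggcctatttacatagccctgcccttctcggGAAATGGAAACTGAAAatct
Ifit1, Isg15, Oas3 and Rsad2, which were not called, were among the other members with the motif.

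Genes of antigen presentation rose in 9 of 16 (56.2%, against 10.6% of all features) with none falling and a median of 0.49. The class I heavy chains H2-K1 and H2-D1 rose by 1.1 ± 0.24 and 0.85 ± 0.18, the class II invariant chain Cd74 by 0.76 ± 0.13 and the costimulator Cd86 by 0.90 ± 0.18. The list mean in animal 4 was again the highest, 0.88, against 0.40 to 0.66 in the other Mitsui low animals and −0.21 to 0.18 in control animals. Leaving out Mitsui low animal 1 or 5, or control animal 5, left 6 of the 9 called.

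Of 15 genes of B and plasma cells 1 rose (6.67%, against 10.6% of all features), Sdc1, by 0.38. The antibody joining chain gene Jchain was at 1.17 ± 0.43 and not called (adjusted p = 0.0539 by limma), with control animal 2 among the exposed animals. Of 19 genes of T and NK cells 1 rose (5.26%), the regulatory T cell factor Foxp3, by 0.69 ± 0.16. Foxp3 was above background in 5 of 5 Mitsui low but 3 of 5 control animals. Another 1 fell, the NK receptor Ncr1, by 0.45 ± 0.15, a call that was lost when any of 7 animals was left out. The B cell gene Ms4a1, which encodes CD20, and the T cell gene Cd3e were not called, at −0.63 and 3e-04.

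Genes of mitosis and DNA replication rose in 22 of 29 (75.9%, against 10.6% of all features) with none falling. All changes were modest, with a median of 0.46 and the largest, Uhrf1, a factor of DNA methylation upkeep, at 0.90 ± 0.10. Mki67, the proliferation marker Ki-67, had log2 ratios of −3.12, −3.02, −2.98, −2.77 and −3.19 in Mitsui low animals, against −3.65, −3.85, −4.16, −3.66 and −3.70 in control animals, a 1.73-fold difference (1.39 to 2.15). Cdc20, an activator of the anaphase complex, rose by 0.82 ± 0.16 and cyclin A2 (Ccna2) by 0.79 ± 0.14. With scale normalisation between arrays added, 5 of the 29 were called.

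The Cdc20 promoter is printed because it holds TTTGAA, the letters of the cell cycle homology region. This is a match of letters, not a measured binding site. The motif was found on either strand within 250 bases before the start in 8 of the 25 matched members (32%). Of all genes with a promoter, 18.3% hold it there. The window is chr4:118437344-118437593 (GRCm38.p6, minus strand), 5′ to 3′, with the match in capitals 18 bases before the start.
Cdc20: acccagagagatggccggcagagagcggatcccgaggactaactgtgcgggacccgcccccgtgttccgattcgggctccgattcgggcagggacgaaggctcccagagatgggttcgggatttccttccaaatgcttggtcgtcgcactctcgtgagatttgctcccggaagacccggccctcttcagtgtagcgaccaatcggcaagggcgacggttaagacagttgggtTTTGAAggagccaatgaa
Mki67 and Top2a were among the other members that hold it.

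The series is titled for genotoxicity, and genes that respond to DNA damage were listed for that reason, although RNA at 56 days measures neither damage nor mutations. Effectors of p53 had 9 of 26 higher (34.6%, against 10.6% of all features) and 2 lower (7.69%, against 10.4%). Their median of 0.13 became −0.06 under median centring. The cell cycle inhibitor Cdkn1a was −0.34, −0.32, −0.51, −0.39 and 0.09 in Mitsui low animals, against −1.43, −0.89, −0.62, −1.02 and −1 in control animals, a 1.62-fold difference (1.3 to 2.03). Gdf15, a secreted stress factor, rose by 1.70 ± 0.19 and the proapoptotic Bax by 0.41 ± 0.09, Btg2 fell by 0.51 ± 0.13, and Mdm2 was not called at 0.13. Of 38 genes of DNA repair and damage signalling, 7 rose (18.4%, against 10.6% of all features) and 1 fell, with a median of −0.01. The base excision enzyme Apex1 rose by 0.51 ± 0.10 and the end-joining subunit Xrcc5 by 0.44 ± 0.10. Ogg1 and Xrcc1, both of base excision repair, were not called at 0.13 and 0.01.

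Antioxidant genes and targets of the transcription factor NRF2 went both ways. Of 30 tested, 13 were higher (43.3%, against 10.6% of all features) and 5 lower (16.7%, against 10.4%). Their median of 0.22 turned to −0.02 once arrays were centred on their median. Haem oxygenase 1 (Hmox1) was the most even of these, at −0.50, −0.52, −0.42, −0.37 and −0.56 in Mitsui low animals, against −1.47, −1.57, −1.59, −1.41 and −1.51 in control animals. The ferritin light chain Ftl1 rose by 1.11 and the metallothioneins Mt1 and Mt2 by 0.89 and 1.35. Of the glutathione transferases, Gsta3 fell by 0.97, Gstm1 by 0.56 and Gstm2 by 0.47, while Gstp1 and Gsta4 were not called at −0.11 and 0.05. The peroxiredoxin Prdx6 fell by 0.49. Nqo1, a textbook NRF2 target, was not called at −0.07.

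Cholesterol synthesis genes rose together. Of 20 genes of cholesterol and fatty acid synthesis, 14 rose (70%, against 10.6% of all features), none fell and the median was 0.50. Sqle, which encodes squalene epoxidase, had log2 ratios of −0.62, −0.48, −0.18, −0.54 and −0.28 in Mitsui low animals, against −1.44, −1.90, −1.12, −1.11 and −1.20 in control animals, a 1.91-fold difference (1.52 to 2.39). Of the same pathway, Dhcr7, Idi1, Fdft1, Hmgcs1 and Cyp51 rose by 0.74, 0.71, 0.70, 0.65 and 0.64. A second Fdft1 probe gave 0.31. Of the fatty acid synthesis genes, the desaturase Scd1 rose by 0.71 ± 0.18, and Fasn, Acaca and Acly were not called, at 0.39, −0.14 and 0.12.

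Hmgcs1 is the only one of 12 matched members that holds the sterol regulatory element, spelled TCACNCCAC. Either strand was searched within 250 bases before the start, where 1.22% of all genes with a promoter hold it. The window is chr13:119690101-119690350 (GRCm38.p6, plus strand), 5′ to 3′, with the match in capitals 137 bases before the start.
Hmgcs1: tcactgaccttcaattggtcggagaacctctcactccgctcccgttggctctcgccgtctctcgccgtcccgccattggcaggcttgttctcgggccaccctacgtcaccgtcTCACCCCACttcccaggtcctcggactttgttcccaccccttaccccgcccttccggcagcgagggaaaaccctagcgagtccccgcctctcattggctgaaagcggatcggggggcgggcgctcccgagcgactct
No match in the other windows says only that these letters are not there.

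Alveolar type 2 genes rose in 14 of 19 (73.7%, against 10.6% of all features) with none falling, and their median was 0.47. Sftpd, a surfactant protein that binds microbes, was 8.67, 8.41, 8.52, 8.48 and 8.53 in Mitsui low animals, against 8.01, 7.70, 7.79, 7.88 and 7.86 in control animals, a 1.6-fold difference (1.41 to 1.81). Lamp3 of the lamellar body rose by 0.72 ± 0.11, the lipid transporter Abca3 by 0.44, and the surfactant protein genes Sftpb and Sftpc were not called at 0.22 and 0.28. Type 1 cell markers fell in 7 of 17 (41.2%, against 10.4% of all features) with none rising, and their median of −0.11 was 0.09 once scale normalisation was added, which left 3 called. The caveolin gene Cav2 stood at 1.55, 1.56, 1.54, 1.39 and 1.47 in Mitsui low animals, against 2.2, 2.28, 2.29, 2.26 and 2.48 in control animals, and Cav1 fell by 0.73 ± 0.13. Both caveolins are also made by endothelium. The type 1 markers Ager and Hopx were at 0.03 and −0.02 and not called.

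Endothelial markers fell in 11 of 24 (45.8%, against 10.4% of all features) with none rising, and their median was −0.39. Esm1, a marker of sprouting endothelial tip cells, was 0.53, 0.42, 1.01, 0.88 and 0.53 in Mitsui low animals, against 2.5, 2.60, 2.2, 2.62 and 2.48 in control animals, a 3.49-fold fall (2.3 to 5.31). The endothelin receptor gene Ednrb and the tip cell ligand Apln fell by 1.23 ± 0.20 and 0.99 ± 0.20, and the VEGF receptor Flt1 by 0.90 ± 0.14. The lymphatic marker Lyve1 fell by 0.96 ± 0.26. The pan-endothelial genes Pecam1, Cdh5 and Vwf were not called, at −0.45, −0.40 and 0.08. With scale normalisation 4 of the 24 were called, and with Feature Extraction log ratios 7.

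Of 23 markers of fibroblasts and smooth muscle, 11 fell (47.8%, against 10.4% of all features) and none rose, with a median of −0.37. Pdgfra, the growth factor receptor of alveolar fibroblasts, had log2 ratios of −0.16, −0.05, −0.28, −0.41 and −0.55 in Mitsui low animals, against 0.74, 0.95, 0.67, 0.84 and 0.74 in control animals, a 2.11-fold fall (1.75 to 2.54). The lipofibroblast factor Tcf21 fell by 1.03 ± 0.15, though by 0.13 and uncalled with Feature Extraction log ratios, where 6 of the 23 were called. Smooth muscle actin (Acta2) and smooth muscle myosin (Myh11) were not called, at 0.07 and −0.01.

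**Figure D4:**
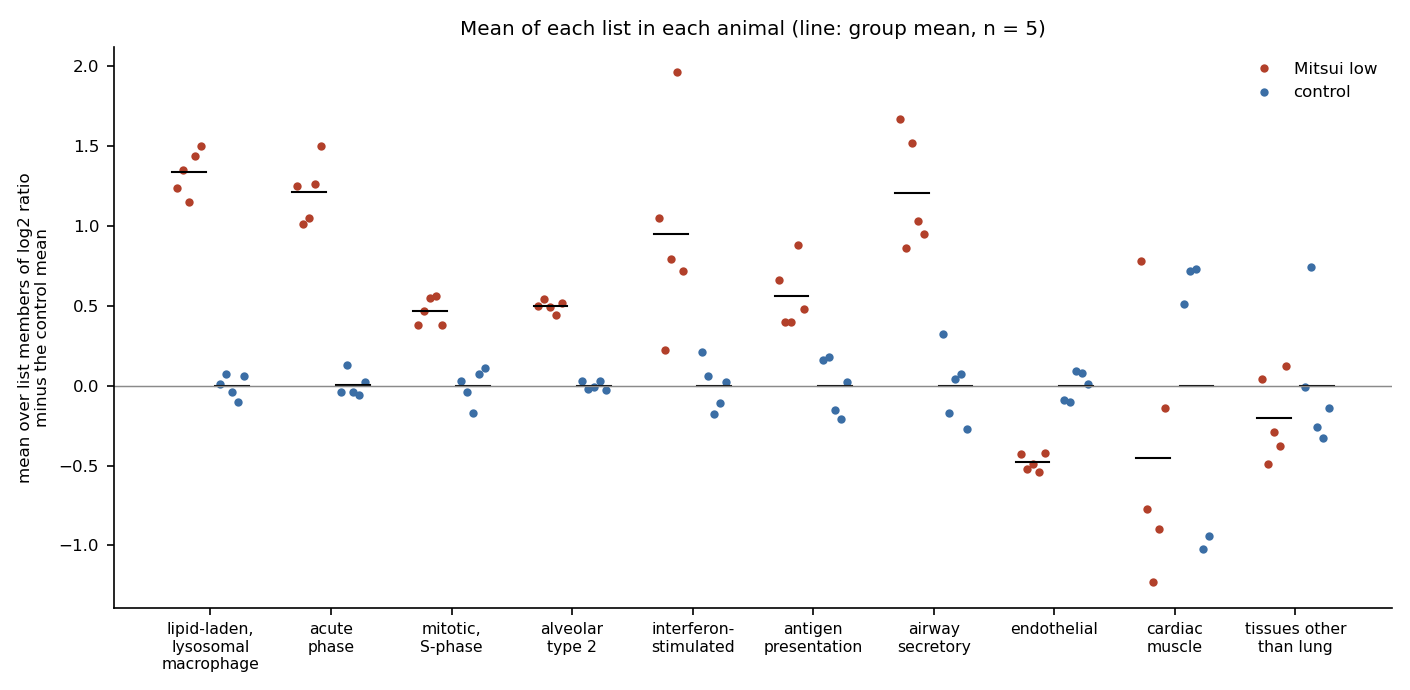
Mean over list members of the log2 ratio minus the control mean (y axis) for 10 gene lists in each of the 5 Mitsui low animals (red, left) and the 5 control animals (blue, right), with a line at each group mean. Exposed animals are close together for alveolar type 2 genes (0.44 to 0.54), spread for interferon-stimulated genes (0.22 to 1.96), and overlap the controls for cardiac muscle markers.

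Among matrix genes and matrix enzymes, 8 of 33 rose (24.2%, against 10.6% of all features) and 5 fell (15.2%, against 10.4%). The median of 0.10 became −0.10 under median centring. Collagen III (Col3a1) rose by 0.75 ± 0.13, collagen I (Col1a1) was not called at 0.29, and fibronectin (Fn1) was at 0.16. The protease inhibitor Timp1 was −0.97, −1.01, −0.92, −0.82 and −0.90 in Mitsui low animals, against −2.73, −3.05, −2.96, −2.79 and −2.92 in control animals, a 3.91-fold difference (3.1 to 4.94). Growth factors and receptors of fibrosis divided evenly, 9 of 30 higher (30%, against 10.6% of all features) and 9 lower (30%, against 10.4%). The insulin-like growth factor Igf1 rose by 2.46 ± 0.25, though its 4 probes ranged from 0.75 to 2.49, activin A (Inhba) by 1.03 ± 0.16 and amphiregulin (Areg) by 1.00 ± 0.21, whereas Igfbp3, Fgf7 and Ccn2 fell by 1.31, 0.65 and 0.56. Tgfb1 rose by 0.34 and its receptors Tgfbr1 and Tgfbr2 were not called, at 0.30 and 0.03.

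Genes of the immediate early and heat shock responses also change with tissue handling. Of 14 tested, 5 were lower (35.7%, against 10.4% of all features) and 2 higher (14.3%, against 10.6%). The phosphatase Dusp1 was 0.33, 0.27, 0.33, 0.36 and 0.47 in Mitsui low animals, against 1.27, 2.10, 1.66, 1.80 and 1.53 in control animals, a 2.5-fold fall (1.82 to 3.43), while Atf3 and Egr2 rose by 1.18 and 1.11. Fos and Egr1 were not called, at −0.37 and −0.46. Core clock genes had 4 of 16 higher (25%, against 10.6% of all features) and 2 lower (12.5%, against 10.4%). Arntl, which encodes BMAL1, was down by 0.64 ± 0.14 and Dbp up by 1.45 ± 0.36. In Dbp control animal 4, at −0.67, lay among the Mitsui low animals (−0.90 to 0.01). Dbp was 1.91 ± 0.36 lower in NM-401 low than in Mitsui low (adjusted p = 0.0987 by limma). Arntl was 0.53 ± 0.14 higher there (adjusted p = 0.383 by limma). The hour at which each animal was killed is not given in the sources used here, and its part in these changes was not tested.

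The largest falls outside the lists were Cidec, a lipid droplet protein of fat cells (−2.08 ± 0.51), Bex2 (−2.02 ± 0.22) and Colq, the collagen tail of acetylcholinesterase (−1.83 ± 0.31). Bex2 was 1.79, 1.48, 1.70, 1.67 and 1.78 in Mitsui low animals, against 4.31, 4.22, 3.19, 3.58 and 3.20 in control animals. A second probe of Cidec gave −0.89 and a second probe of Colq −0.49, each less than the probe used. Of 8 fat cell genes picked after their values were seen, 3 fell, namely Cidec, Cox8b, a respiratory chain subunit of brown fat and muscle, and the adrenergic receptor Adrb3. The other 5 were not called, among them Cidea at 0.27, Fabp4 at −0.58 and Adipoq. The fat hormone Adipoq was 0.92, −0.32, 0.07, 0.44 and 0.37 in Mitsui low animals, against 2.47, 5.34, 1.11, 0.82 and 0.46 in control animals. Control animal 2 was the highest in Adipoq, Cidec and Cox8b. Without it the changes were −1.73 for Cidec and −1.12 for Cox8b, both still called, and the part of adhering fat in these falls was not tested. With Feature Extraction log ratios neither was called.

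Markers of tissues that could adhere to a lung piece varied between animals of both groups. Cardiac muscle markers had 1 of 16 called (6.25%, against 21% of all features). It was Nppb, at 0.30, above background in 2 of 5 Mitsui low and 1 of 5 control animals. The list mean was 0.78, −0.77, −1.23, −0.90 and −0.14 in Mitsui low animals, against 0.51, 0.72, 0.73, −1.02 and −0.94 in control animals. Of the markers of tissues other than lung 1 of 13 was called (7.69%). Their list means were −0.49 to 0.12 in Mitsui low and −0.33 to 0.74 in control animals. Of 7 red blood cell transcripts none was called, and list means ran from −0.39 to 0.16 in Mitsui low and −0.16 to 0.16 in control animals. Markers of the mesothelium, which coats the outer lung surface, had 1 of 13 called (7.69%). The part of such adhering tissue in the changes above was not tested.

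The response at the low dose was then placed beside the same nanotube at 128 µg and beside NM-401 at 42.7 µg, and these 2 comparisons share the Mitsui low animals. At an adjusted p under 0.05 limma called 0 of 22950 features (0%) between Mitsui high and Mitsui low, with 1243 at an unadjusted p under 0.05. NM-401 low and Mitsui low also differed in 0 features (0%), with 1287 at an unadjusted p under 0.05. A missed threshold does not show equal levels, so intervals follow. The ratio of Mitsui high over Mitsui low was 0.747 to 1.69 (95% interval) for Trem2, 0.41 to 1.55 for Saa3, 0.734 to 1.49 for Muc5b and 0.766 to 1.11 for Pdgfra. For NM-401 low over Mitsui low it was 0.605 to 1.37 for Trem2, 0.357 to 1.35 for Saa3, 0.569 to 1.15 for Muc5b and 0.928 to 1.35 for Pdgfra.

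The smallest p values between the doses belonged to Haus5, Apbb3 and Gabbr1, which were 0.31, 0.30 and 0.51 higher in Mitsui high than in Mitsui low (adjusted p = 0.136 each). Between the materials they belonged to Manf, Dnajb9 and Tex11, which were 0.48, 0.37 and 0.89 lower in NM-401 low than in Mitsui low (adjusted p = 0.0819 each). Cxcl5 was 1.07 ± 0.39 lower in Mitsui high than in Mitsui low and 1.03 ± 0.39 higher in NM-401 low than in Mitsui low, with adjusted p of 0.693 and 0.757.

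**Figure D5:**
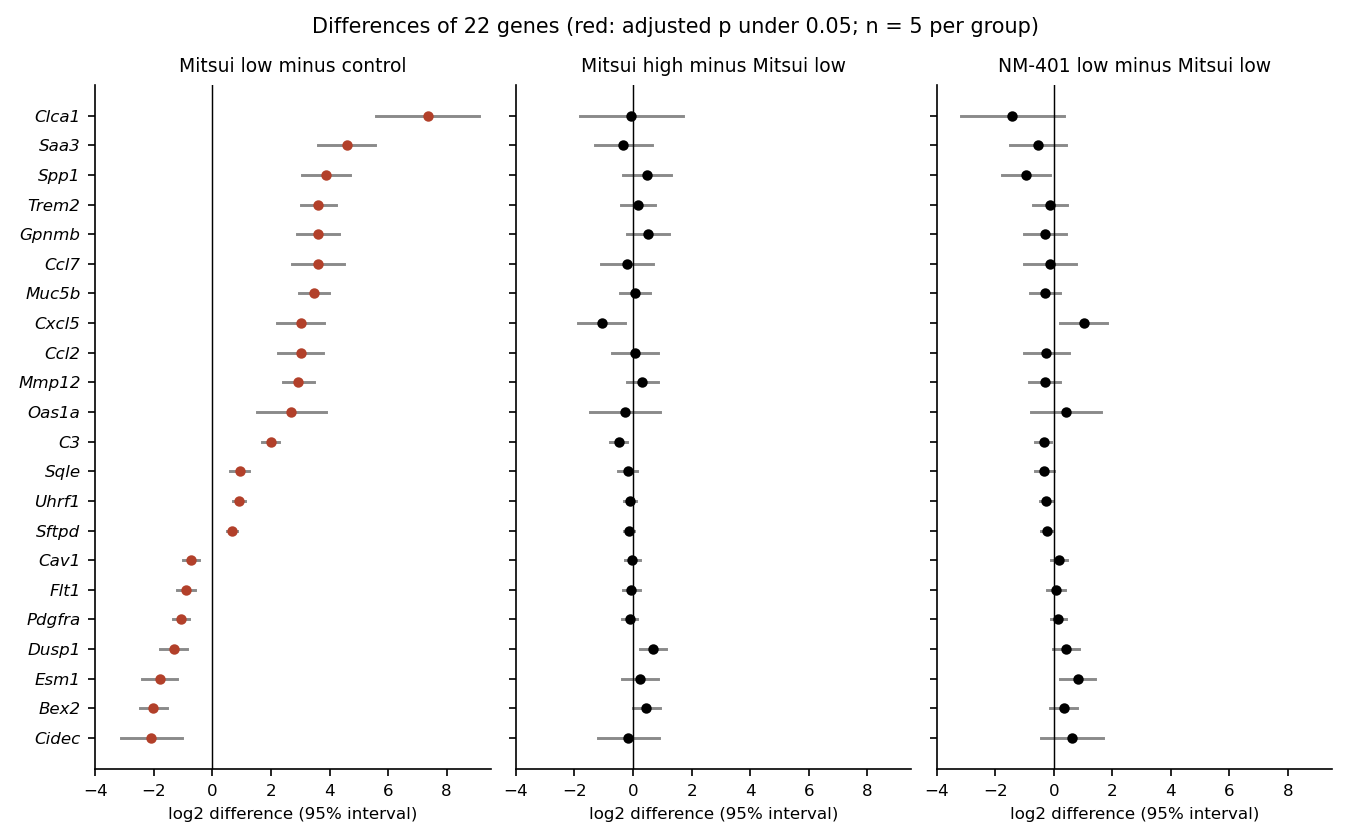
Log2 differences of 22 genes with 95% intervals (x axis, same scale in each panel) for Mitsui low minus control, Mitsui high minus Mitsui low and NM-401 low minus Mitsui low, 5 animals per group. The Clca1 and Mmp12 controls were mostly not above background, so those differences in the first panel are no measured fold. All 22 are called in the first panel (red) and 0 in the other panels (black).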

How the data were processed

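Lung RNA of 25 mice was measured on 26 2-colour Agilent arrays, with the animal's RNA in Cy5 and universal mouse reference RNA in Cy3 per the labels, and no dye swap. The authors deposited scanner output made with Feature Extraction 11.0.1.1 per the file headers: median spot and background intensity, log10 ratios and flags of 0 or 1 (other values) for outliers, saturation and signal above background. They also deposited a matrix of log2 ratios, whose processing is not given in the sources used here; its columns had medians of −0.04 to −0.0181 and followed the loess values of the same arrays with r of 0.994 to 0.999, so its direction is Cy5 over Cy3.

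Intensities were background-corrected by normexp (offset 50) and normalised within arrays by loess with limma 3.58.1 in R 4.3.3. Outlier spots were left out and no probe was saturated in Cy5. Saturation in Cy3 was not counted. Of 55681 probes, 30466 were kept, those with Cy5 well above background in 4 or more animals of any group. Probe accessions were matched to RefSeq symbols, and 28446 probes stayed without one. Each symbol took its brightest kept probe, and probes without a symbol were taken in the same way per accession. This gave 22950 features, 14838 with a symbol and 8112 without. The 25 animals were fitted as 5 group means with lmFit and eBayes, with Benjamini-Hochberg adjustment over all features. Promoters are those of RefSeq, build GRCm38.p6.

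The members and gene lists were chosen with earlier results of these data known. Named genes are the 15 largest rises and 10 largest falls, up to 5 called members of each list, and other list members with their values. The labels do not say more of how animals were handled together, so p-values measure the spread between these animals. The fit was tested on simulated data. Alternatives covered background, normalisation, filter, slide and replicate blocks, weights, the repeat array, the authors' matrix and leaving out each animal. Some genes are not reported here.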

Additional observations from a re-analysis of the deposited data

Results flagged for a closer look

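In 25 of 348 groups of 5 animals that were looked at (282 for genes and 66 for list means), the highest or lowest animal lay farther from the rest than Dixon's 95% critical value of 0.71 allows, where chance gives about 1 in 20. No explanation was weighed. Values are log2 ratios, with the range of the other animals of the group in brackets.

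Among Mitsui low animals, animal 5 was high in Spp1 at 0.86 (0.05 to 0.16), animal 4 in Egr2 at 0.42 (0.03 to 0.10) and animal 3 in the cilia gene Rsph1 at 3.08 (2.42 to 2.59). Animal 2 was low in Ifi27 at 1.17 (1.62 to 1.67) and in the natriuretic peptide receptor Npr3 at 0.27 (0.91 to 1.15). Animal 1 stood apart in 4 genes: Cav1 at 1.90 (1.46 to 1.58), the red cell gene Alas2 at 5.22 (4.74 to 4.85), the heart muscle gene Myl3 at 2.35 (0.83 to 1.00) and, on the low side, the cilia factor Foxj1 at 3.57 (3.75 to 3.78).

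Among control animals, animal 1 was high in Muc5b at 2.61 (0.95 to 1.35) and low in Spp1 at −4.30 (−3.55 to −3.33) and Jun at 1.36 (1.82 to 1.93). Its list means were 0.15 for macrophage markers (−0.06 to −0.02) and −0.10 for p53 effectors (0.01 to 0.04). Animal 2 was high in the immunoglobulin joining chain gene Jchain at −1.08 (−3.15 to −2.80), Foxp3 at 0.46 (−0.08 to 0.07), Psrc1 at −2.06 (−2.72 to −2.60) and Ncr1 at 1.54 (0.91 to 1.09), and low in Sdc1 at 0.89 (1.28 to 1.32). Animal 3 was at 0.34 for Clca1 (−0.08 to 0.03), 0.48 for Clock (0.87 to 1.02) and 0.06 for the mean of NRF2 targets (−0.03 to −0.01). Animal 4 was low in H2-D1 at 2.38 (2.70 to 2.82) and high in Dynlrb2 at 5.69 (5.08 to 5.24), and animal 5 was high in the protease gene Plau at −0.21 (−1.95 to −1.58).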

How the results depend on the processing

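With median centring in place of loess, 74 features were called between Mitsui low and control (62 higher, 12 lower), all 74 among the 4809, and 97.3% of the 4809 kept their sign. The median standard error was then 0.309, against 0.0951. Leaving out each animal in turn gave 3999 to 4735 calls. Other counts were 6023 with slide as a block, 5929 with array quality weights, 4842 with Feature Extraction log ratios, 4871 with the authors' matrix and 3947 with scale normalisation. Between Mitsui high and Mitsui low, 15 were called with slide as a block, 7 with array quality weights, 1 with only those groups and 1 with replicate number as a block, and 0 to 3 when an animal was left out. Between NM-401 low and Mitsui low, 1 was called with Feature Extraction log ratios, 2 with array quality weights and 1 with only those groups, and 0 when an animal was left out. The cause of these shifts was not tested. Replicate numbers did not pair the animals: same-numbered Mitsui low and control animals deviated with r of −0.11 to 0.18, 1 of 5 Mitsui low animals went best with its own number, and the replicate block gave 4735 calls. Of 133 named called genes, 107 lost the call under median centring. Under Feature Extraction log ratios 17 lost it with the sign kept, and Itga8 also lost it, turning to 0.36 (adjusted p = 0.437 by limma, against −1.01 after loess). Leaving out animals cost 10 of the 133 their call at least once.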

Other observations

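Other genes were picked after their values were seen, so counts over them are descriptions with no test. Of 8 platelet genes, 7 were lower in Mitsui low than in control lungs, with a median change of −0.68 (log2). They included Gp9 at −1.10 ± 0.22, Treml1 at −0.84 and Itga2b at −0.68, whereas Pf4, also a platelet chemokine, was at 0.18 and not called. Of 11 chaperone genes of the endoplasmic reticulum, 9 were higher in Mitsui low than in control lungs, with a median of 0.42. Hspa5, the main chaperone of that compartment, was at 0.48 ± 0.07 and Manf at 0.44 ± 0.08. All 11 had negative differences for NM-401 low minus Mitsui low (median −0.25) and for Mitsui high minus Mitsui low (median −0.17), comparisons that share the Mitsui low animals and in which none passed the threshold.

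Npy, which encodes neuropeptide Y, read 2.69, 2.02, 2.47, 2.75 and 2.85 in Mitsui low animals and was above background in 0 of 5 control animals, so no fold is given. Cd200r2, of the CD200 receptor family, read 2.14, 2.54, 2.33, 2.89 and 3.40 in Mitsui low animals and was also above background in 0 of 5 control animals.

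Of 8 adipocyte genes, 3 were lower in Mitsui low than in control lungs and 5 were not called. Control animal 2 read 5.34 for Adipoq, 7.25 for Fabp4, 4.53 for Plin1 and 8.30 for Cfd.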
